A study of Mus musculus with 41 samples.

Results

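The sites bound by induced SOX9 in mouse skin after 1 week (W1) were compared with the sites bound by the same factor in cultured keratinocytes. Both were measured by CUT&RUN (CNR), in which an antibody directs a nuclease to a chromatin protein and the released fragments are sequenced. Members were the peaks of the W1 and the cultured WT-SOX9 list that overlapped neither a SOX9 peak of uninduced skin (D0) nor a MYC-tag peak of uninduced cells. These were 14179 of 15651 W1 peaks and 6158 of 6671 cultured peaks, 20337 of the 232068 peaks in the 14 pooled lists read. Kept peaks that overlapped by at least 1 bp were called shared, and the others skin-only or culture-only.

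Skin samples were epidermal stem cells (EpdSCs) sorted as CD49f-high, Ly6A-high and CD34-neg cells lacking CD31, CD45, CD117 and CD140a from back skin of male CD1 mice of genotype K14rtTA; TRE-myc-Sox9. In these mice the *Krt14* promoter drives rtTA, and the MYC-tagged transgene is expressed only in cells with rtTA and doxycycline (DOX). The uninduced controls carried both transgenes too. D0 mice were P21, when DOX was started, W1 mice were P28, W2 mice P35 and W6 mice P63. W12 cells came from skin grafts, by the methods from newborn donors on immunocompromised female hosts. The cultured cells were keratinocytes from back skin of the same strain, sex and labelled genotype, kept with or without DOX at 1 µg/ml. The methods of the study describe primary cells from newborn male pups and lentiviral transgenes in the culture work. The time in DOX of the cultured CNR samples was not given in the sources used here. Skin CNR used a SOX9 antibody and cultured CNR a MYC-tag antibody. Cell source, donor age, antibody and delivery of the transgene therefore cannot be told apart in any contrast of the systems. Each group had 2 samples, and the list used for each group was called on both together, so the spread between replicates could not be measured. Intervals are 95% Wilson intervals for shares and Newcombe intervals for differences, and cover counting error only.

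SOX9 is a transcription factor of the hair follicle and of cartilage. It binds DNA through an HMG box that recognises variants of the word ATTGT and can reach its site in closed chromatin. MLL3/4 (KMT2C and KMT2D) are methyltransferases that place the enhancer mark H3K4me1, and MLL3/4 CNR before induction shows where these enzymes already lay. H3K4me1 itself was not analysed here. AP-1 factors are basic leucine zipper proteins that bind many enhancers of keratinocytes.

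Windows of 50 bp to either side of the signal maximum show what the strongest sites looked like. For each class 3 of the peaks of highest total signal (the signal summed over the bases of a peak) are printed on the + strand of mm10 (RefSeq GRCm38.p6), shared ones ranked in the cultured list. They are named by the protein-coding gene with the nearest start, which for *Klf6* and *Grik2* lay over 100 kb away. The shared sites of highest total signal at *Runx1* (cultured peak) and *Ctnnb1* (W1 peak) follow, and were added after their values were seen. Capitals mark SOX words (CCATTGT or CCTTTGT or GCATTGT or GCTTTGT on either strand) and the core ATTGT on either strand. The core was added after these windows were seen, and no window held an AP1 word (TGACTCA or TGAGTCA).
Clca4a shared, chr3:144978196-144978296: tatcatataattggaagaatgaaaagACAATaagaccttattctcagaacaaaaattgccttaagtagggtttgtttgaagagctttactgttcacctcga
Tfpi shared, chr2:84518864-84518964: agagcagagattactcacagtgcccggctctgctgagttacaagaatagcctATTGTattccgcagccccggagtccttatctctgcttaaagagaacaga
Tle1 shared, chr4:72233964-72234064: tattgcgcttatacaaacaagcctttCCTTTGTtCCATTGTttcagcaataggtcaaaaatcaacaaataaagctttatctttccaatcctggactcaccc
Klf6 skin-only, chr13:6029123-6029223: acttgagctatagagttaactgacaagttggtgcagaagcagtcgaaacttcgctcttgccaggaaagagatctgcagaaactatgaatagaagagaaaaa
Tmem45a skin-only, chr16:56871250-56871350: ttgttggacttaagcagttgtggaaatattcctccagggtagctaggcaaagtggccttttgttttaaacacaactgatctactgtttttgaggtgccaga
Peli1 skin-only, chr11:21080001-21080101: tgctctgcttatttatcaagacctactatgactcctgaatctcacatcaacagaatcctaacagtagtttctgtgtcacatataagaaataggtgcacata
Grik2 culture-only, chr10:49657965-49658065: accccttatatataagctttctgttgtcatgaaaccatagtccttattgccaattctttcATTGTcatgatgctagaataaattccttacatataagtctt
Usp32 culture-only, chr11:85078818-85078918: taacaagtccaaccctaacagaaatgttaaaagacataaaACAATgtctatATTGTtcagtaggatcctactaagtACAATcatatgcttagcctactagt
Gm21961 culture-only, chr15:65053951-65054051: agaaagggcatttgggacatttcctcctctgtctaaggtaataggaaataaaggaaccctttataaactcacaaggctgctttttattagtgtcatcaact
Runx1 shared, chr16:92739162-92739262: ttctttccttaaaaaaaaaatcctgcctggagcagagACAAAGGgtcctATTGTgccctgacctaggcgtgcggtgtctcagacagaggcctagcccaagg
Ctnnb1 shared, chr9:120932552-120932652: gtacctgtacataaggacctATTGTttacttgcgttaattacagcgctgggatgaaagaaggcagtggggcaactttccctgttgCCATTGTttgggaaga

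All 3 shared windows and 2 of the 3 culture-only windows of the ranked set held a marked word. The *Usp32* window held 3 cores. None of the 3 skin-only windows held one. By the SOX words alone, 1 of the 3 shared windows (*Tle1*) and 0 of the 3 windows of either other class held one, so these few windows are shown as examples and the counts over all windows follow.

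The systems shared a minority of their sites. Of the W1 peaks kept, 2006 (14.1%, interval 13.6 to 14.7) were shared and 12173 were skin-only. Of the cultured peaks kept, 2088 (33.9%, interval 32.7 to 35.1) were shared, 4033 were culture-only, and 37 touched nothing but a set-aside W1 peak and were left out of the classes. The same W1 peaks moved by 10 kb to each side met cultured peaks in 0.656% of cases, and moved cultured peaks met W1 peaks in 1.56%. Both shares stood far above this local background.

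**Figure D1:**
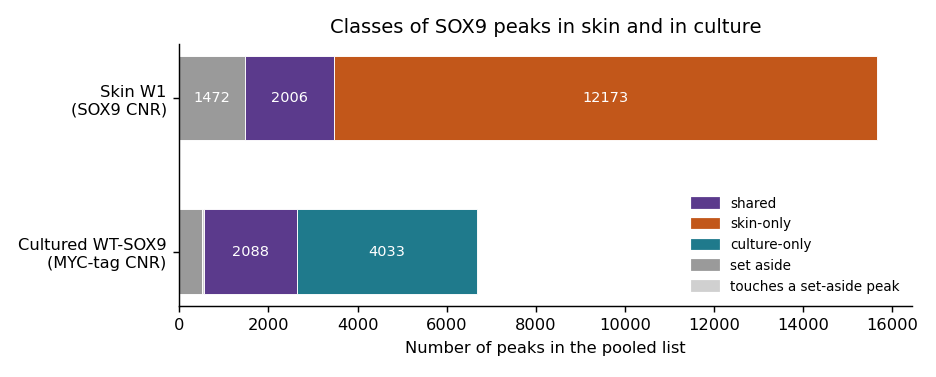
Number of peaks of each class in the W1 list and in the cultured WT-SOX9 list. Shared peaks numbered 2006 and 2088, against 12173 skin-only and 4033 culture-only peaks.

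The lists differed in depth. The step between signal values gave 17.4 M fragments for W1, with 32 fragments at the maximum of the weakest peak, and 6.09 M for cultured WT-SOX9, with 11 fragments there. Median peak width was 682 bp in the W1 list and 189 bp in the cultured list. When the W1 list was limited to as many peaks as the cultured list, its shared share was 21.5% and that of the cultured list 21.3%.

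Where a site was shared, both experiments put the signal in nearly the same place. Over 2088 overlapping pairs the maxima lay a median of 18 bp apart, and 68.7% lay within 50 bp. The height of the maxima agreed only weakly over these pairs (Spearman rho 0.28). Skin-only sites were seldom near misses, since 1.75% lay within 1 kb of a kept cultured peak and 7.17% within 5 kb. The corresponding shares of culture-only sites were 2.06% and 7.93%.

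Shared sites were the stronger ones. In the W1 list the median maximum was 4091 RPKM (coverage scaled to the depth of the library) at shared and 2535 RPKM at skin-only sites. In the cultured list it was 2627 RPKM at shared and 2298 RPKM at culture-only sites. Among the quintile of W1 peaks with the highest total signal 28.9% were shared, against 9.07% of the lowest quintile. In the cultured list the shares were 46.3% and 23.2%.

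MLL3/4 before induction separated the classes, and in opposite directions in the 2 systems. In skin, 69.0% (interval 68.2 to 69.8) of skin-only sites lay on a D0 MLL3/4 peak, against 39.0% (interval 36.9 to 41.1) of shared sites. The difference was -30.0 percentage points (interval -32.3 to -27.7). Of all W1 peaks 67.7% lay on a D0 MLL3/4 peak.

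In culture the order was the reverse. Of shared sites, 41.7% (interval 39.6 to 43.8) lay on an MLL3/4 peak of cells without DOX, against 11.95% (interval 10.99 to 12.99) of culture-only sites. The difference was 29.7 points (interval 27.4 to 32.1). Of all cultured peaks 27.7% lay on such a peak. The local background of the 4 shares lay between 1.57% and 7.09%, and counting a site only where its maximum fell inside the MLL3/4 peak gave differences of -31.4 and 28.4 points. With each MLL3/4 list limited to its 10543 peaks of highest total signal, the length of the shortest list, they were smaller, at -19.0 points in skin (interval -20.9 to -17.0) and 18.5 points in culture (interval 16.6 to 20.5).

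**Figure D2:**
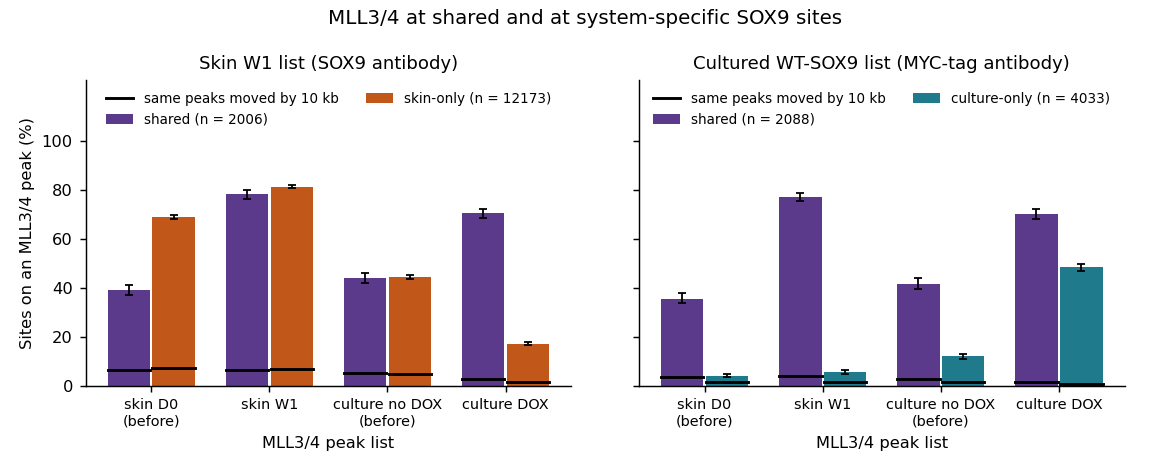
Share of SOX9 sites on an MLL3/4 peak (percent, vertical axis) for shared and system-specific sites of the W1 list (left) and of the cultured list (right), in the MLL3/4 lists of skin and culture before and after induction. Error bars are 95% Wilson intervals and black lines the share for the same peaks moved by 10 kb. D0 MLL3/4 lay at 69.0% of skin-only and at 4.09% of culture-only sites.

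The contrast was present in each quintile of signal. In each quintile of the W1 list by total signal, sites without D0 MLL3/4 were shared more often than sites with it, by 14.5% against 4.27% in the lowest and 47.3% against 20.5% in the highest quintile. In each quintile of the cultured list, sites with MLL3/4 before DOX were shared more often, by 52.3% against 14.3% in the lowest and 75.4% against 38.6% in the highest quintile. Away from promoters the class differences were -32.4 points in skin (interval -34.8 to -29.9) and 26.3 points in culture (interval 23.8 to 28.7). At promoters they were -13.9 points in skin (interval -19.3 to -8.86) and 40.8 points in culture (interval 33.8 to 47.2).

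**Figure D3:**
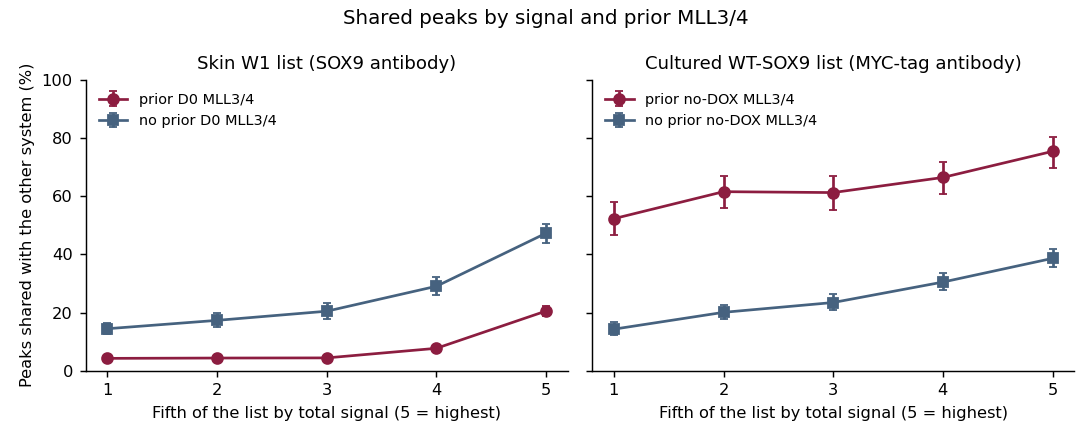
Share of peaks shared with the other system (percent, vertical axis) by quintile of total signal, with and without prior MLL3/4 in the same system. Left, W1 peaks by D0 MLL3/4. Right, cultured peaks by MLL3/4 without DOX. Bars are 95% Wilson intervals. With prior MLL3/4 the share lay below that without it in all 5 quintiles on the left, and above it in all 5 on the right.

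Read across both systems, the classes had distinct MLL3/4 histories. Culture-only sites were mostly bare beforehand: 86.9% had a prior MLL3/4 peak in neither system, and 4.09% had one in skin at D0, against a local background of 1.61%. Shared sites had one in neither system in 48.2% of cases, counted over the W1 peaks. Skin-only sites had one in both systems in 39.5% and in neither in 26.2% of cases. Thus 44.2% of skin-only sites carried MLL3/4 in uninduced cultured cells, as did 44.0% of shared sites.

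After induction, MLL3/4 was frequent where SOX9 was bound. At W1 MLL3/4 lay at 78.3% of shared and 81.3% of skin-only sites, and at 5.46% of culture-only sites. In cultured cells with DOX it lay at 70.1% of shared and 48.3% of culture-only sites, and at 17.1% of skin-only sites. Of all W1 peaks 82.0% lay on W1 MLL3/4, and of all cultured peaks 56.6% lay on MLL3/4 with DOX. The cultured DOX list is short (10543 peaks against 33975 without DOX). The titles of its samples name both replicates, but other labels of both samples describe replicate 2. With every MLL3/4 list limited to its 10543 peaks of highest total signal, culture-only sites lay on MLL3/4 in 5.46% of cases without and 48.3% with DOX, shared sites in 24.0% and 70.1%, and skin-only sites in 20.6% and 17.1%. At W1 the order turned, with 50.9% of shared (interval 48.7 to 53.1) and 48.2% of skin-only sites (interval 47.3 to 49.1) on MLL3/4.

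Sites bare of MLL3/4 in their own system beforehand often had it later. Of such shared sites 69.0% had MLL3/4 in skin at W1 and 64.9% in culture with DOX. For bare skin-only sites the share at W1 was 61.6%, and for bare culture-only sites the share with DOX was 46.2%.

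The sequence at the maximum also set skin-only sites apart. A SOX word lay within 50 bp of the maximum at 34.9% of shared sites (W1 maxima, interval 32.9 to 37.1), at 16.7% of skin-only sites (interval 16.0 to 17.4) and at 36.0% of culture-only sites (interval 34.5 to 37.5). Windows 1 kb to each side held it in 6.49% to 6.63% of cases. Over all W1 windows the share was 18.4%, and over all cultured windows 34.3%.

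Shared minus skin-only was 18.2 points (interval 16.1 to 20.5). In culture, shared minus culture-only was 0.73 points (interval -1.80 to 3.28), a difference not detectable at these numbers. Above 3600 RPKM in both lists it was 6.77 points (interval 1.14 to 12.4). The core ATTGT lay in 49.3% of shared windows at cultured maxima (interval 47.2 to 51.5), against 17.7% to the sides, and in 57.2% of culture-only windows (interval 55.7 to 58.7), against 20.1% to the sides. Relative to the sides the classes were close, at 2.79 and 2.84 times. At W1 maxima it lay in 48.2% of shared windows, against 18.1% to the sides, and in 27.3% of skin-only windows, against 16.9%. An inverted pair, ACAAT and ATTGT with 3, 4 or 5 letters between, was rare throughout. It lay in 15 of 2006 shared (W1 maxima), 27 of 12173 skin-only and 53 of 4033 culture-only windows. These shares were 0.748%, 0.222% and 1.31%, against 0.025%, 0.037% and 0.062% to the sides.

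AP1 words had another order. They lay in 15.7% of skin-only windows (interval 15.0 to 16.3), in 12.4% of shared windows at W1 maxima and in 5.36% of culture-only windows (interval 4.70 to 6.09), against 1.66% to 2.09% to the sides. Over all W1 windows the share was 16.2%, over all cultured windows 7.12%, and at set-aside W1 peaks 25.6%. Skin-only minus culture-only was 10.3 points (interval 9.34 to 11.2). Both words in 1 window were found at 3.09% of shared, 1.76% of skin-only and 1.54% of culture-only sites.

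**Figure D4:**
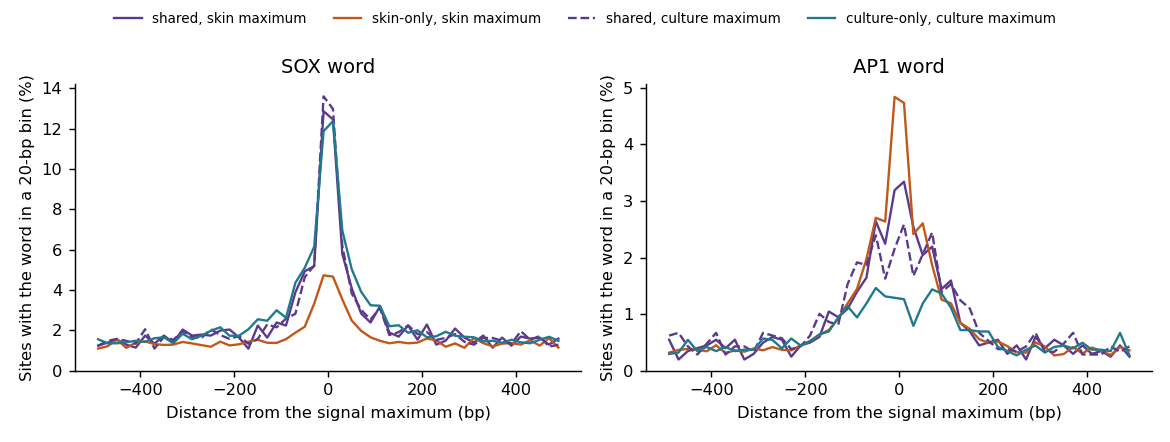
Share of sites with a SOX word (left) or an AP1 word (right) in bins of 20 bp around the signal maximum, by class (percent, vertical axis; distance in bp, horizontal axis). SOX words peaked at the maximum, at 12.9% of shared, 12.4% of culture-only and 4.73% of skin-only sites, whereas AP1 words peaked there at skin-only sites (4.84%) and reached 1.46% at most at culture-only sites.

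In percentage points, other words separated the classes less. The AP-2 word (GCCNNNGGC, bound by epidermal TFAP2 factors) lay in 4.01% of skin-only, 2.39% of shared and 1.59% of culture-only windows. The GATA words (AGATAAG or AGATAAC) lay in 3.38% of skin-only, 2.54% of shared and 2.45% of culture-only windows. The RUNX word (AACCACA) lay in 3.42% of culture-only, 3.04% of shared and 2.01% of skin-only windows, and the TEAD word (GGAATGT) in 1.61%, 2.34% and 2.49%. Their shares to the sides lay between 1.22% and 2.60%. CTCF words lay in at most 0.399% of the windows of a class and TP63 words in at most 2 windows of a class. Words were counted on both strands, and a word is a match of letters, not a bound site. Median GC content of the windows was 46.5% at skin-only, 43.6% at shared and 39.6% at culture-only sites, and its part in the word counts was not tested.

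Prior MLL3/4 and the SOX word were inversely arranged within both lists. Of kept W1 peaks with a D0 MLL3/4 peak 12.6% held a SOX word, and of those without one 31.5%. In the cultured list the shares were 25.1% with and 39.3% without MLL3/4 before DOX. Within the W1 list a SOX word without prior MLL3/4 went with the highest shared share, 33.3% (525 of 1576). No SOX word with prior MLL3/4 went with the lowest, 7.55% (606 of 8024). In the cultured list prior MLL3/4 went with 63.1% shared, against 25.5% without it. With prior MLL3/4, 64.5% of cultured sites with a SOX word (interval 59.3 to 69.3) and 62.6% of those without one (interval 59.6 to 65.5) were shared. Without prior MLL3/4 the shares were 28.9% (interval 26.9 to 31.0) and 23.2% (interval 21.7 to 24.8). Over all cultured sites they were 34.5% and 33.6%.

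Promoters, here a maximum within 1 kb of an annotated transcript start, held 20.2% (interval 19.5 to 20.9) of skin-only, 16.4% (interval 14.8 to 18.1) of shared and 8.90% (interval 8.06 to 9.82) of culture-only sites. Over all W1 peaks the share was 21.7% and over all cultured peaks 14.4%. Introns held 41.0%, 46.4% and 49.4% of the 3 classes in the same order, and exons about 3% each (2.65%, 2.89% and 3.22%). The contrasts of promoter share, -3.77 points in skin and 7.53 points in culture, did not persist in lists of equal size (-0.64 and 0.11 points). Set-aside peaks were rich in promoters, with 42.1% in the W1 list and 48.1% in the cultured list.

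The classes also differed in how often they were bound later in skin. Shared sites lay on SOX9 peaks of W2 in 86.5%, of W6 in 92.4% and of W12 in 74.0% of cases (interval 72.0 to 75.9). For skin-only sites these shares were 74.3%, 67.6% and 26.2% (interval 25.4 to 27.0). At W12 SOX9 therefore lay at most shared sites and at about 1 in 4 skin-only sites. The W12 list is shorter (9745 peaks) and comes from grafts, so time and graft cannot be told apart. Shared sites were also the stronger ones at W1, and the part of signal in these shares was not tested.

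Culture-only sites, free of a W1 peak by definition, were bound in skin at W2 in 6.25%, at W6 in 21.7% and at W12 in 17.7% of cases, against local backgrounds of 0.58%, 1.07% and 0.64%. In all, 1066 of the 4033 had a SOX9 peak at 1 of these times or more. These 1066 lay on MLL3/4 of uninduced cultured cells in 25.5% and held an AP1 word in 10.9% of cases. For the other 2967 sites the shares were 7.08% and 3.37%. SOX words were about as frequent in both, at 37.6% and 35.4%.

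**Figure D5:**
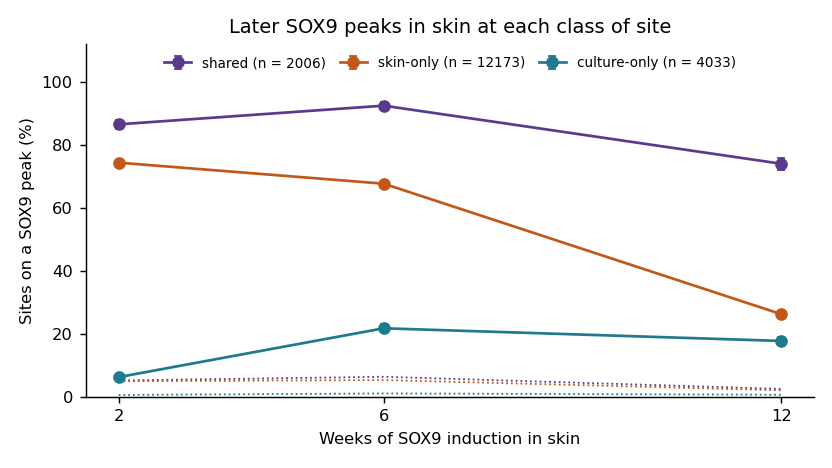
Share of sites of each class that overlapped a SOX9 peak of skin after 2, 6 and 12 weeks of induction (percent, vertical axis), with 95% Wilson intervals, most of them smaller than the points. Dotted lines give the same peaks moved by 10 kb. At 12 weeks the shares were 74.0% for shared, 26.2% for skin-only and 17.7% for culture-only sites.

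Among the 3 classes, MYC-tag peaks of truncated SOX9 in culture lay most often at shared sites. Those of dTA-SOX9, which lacks the transactivation domain, lay at 30.2% of shared sites (W1 peaks), 13.5% of skin-only and 9.99% of culture-only sites. The local backgrounds were 1.72%, 1.27% and 0.41%. Of all W1 peaks 18.9% and of all cultured peaks 19.2% lay on dTA-SOX9 peaks. Peaks of dHMG-SOX9, which lacks the DNA-binding HMG box, lay at 6.23%, 4.13% and 1.39%. They lay at 7.04% of all W1 peaks and at 6.4% of all cultured peaks. The dHMG-SOX9 share at shared sites was thus not above that of either whole list. Set-aside W1 peaks met peaks of truncated SOX9 more often, at 47.96% for dTA-SOX9 and 32.2% for dHMG-SOX9. Culture-only peaks were narrower (median 179 bp) than shared and skin-only W1 peaks (706 and 671 bp), and the part of width was not tested.

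Near genes, 1373 of 21911 protein-coding genes (6.27%) were the closest within 100 kb to a shared site, 4995 (22.8%) to a skin-only site and 2259 (10.3%) to a culture-only site. These shares of all genes are the yardstick for the lists of genes that follow, and the counts depend on the settings. With lists of equal size 874 genes had a shared and 2197 a skin-only site, above 3600 RPKM 364 and 1729, and with 50 kb to each side of a gene 3062 and 9924. The systems met at genes as well as at sites, since 1073 of the 2259 genes with a culture-only site (47.5%) also had a shared or skin-only site, whereas 25.1% of all protein-coding genes had one. Long genes and gene-poor regions may collect more sites of every class, and their part in this share was not tested.

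*Runx1*, a transcription factor of hair follicle stem cells, had the most shared sites of any gene (6), with 7 skin-only and 2 culture-only sites. It was followed by *Ehf*, an ETS factor of epithelia, *Ccser1*, *Pde4d*, a cAMP phosphodiesterase, and *Nck2*, an adaptor protein, with 5 shared sites each. *2010111I01Rik* had 23 skin-only sites and no culture-only site, *Tmem45a* 19 and none, and *Arid5b*, which codes for an AT-rich DNA-binding protein, 17 and none. *Pde4b* had 19 skin-only sites and *Vav3* 17.

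*Ccser1* was also among the genes with the most culture-only sites. *Sfi1* had 19, but all lay in 65.4 kb that held 56 cultured peaks, 36 of them set aside because uninduced peaks lay there too. *Chl1*, a neural cell adhesion gene, had 12, of which 10 lay on MLL3/4 peaks of cells with DOX. *Exoc4*, an exocyst subunit, had 10 and no skin-only site, *Ccser1* had 9 and *Arhgap26* 8, a number that *Foxp1*, *Zfp608* and *Clint1* had too.

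Most of the 11 gene lists exceeded all genes in the share with a site, in each of the 3 classes, so these counts single out no list. Of 22 hair follicle factors 8 had a shared site (36.4%, against 6.27% of all genes) and 15 a skin-only site. *Runx1* led, followed by *Vdr*, the vitamin D receptor, with 2 shared and 6 skin-only sites. *Tcf7l2*, an effector of WNT signalling, had 1 shared and 7 skin-only sites, and the other factors with a shared site also had 1 each. Of 24 genes for integrins, laminins and desmosomes 8 had a shared and 19 a skin-only site. The desmosome genes *Dsg3* and *Dsp* and the integrin gene *Itga6* had 2 shared sites each, beside 3, 9 and 9 skin-only ones.

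Of 31 WNT pathway genes 9 had a shared and 21 a skin-only site. *Fzd7*, a WNT receptor, had 2 shared sites, and the others, among them *Tle1*, a corepressor, and *Lrp5*, a coreceptor, had 1 each. Of 20 hair follicle surface and secreted genes 5 had a shared site, among them *Postn*, *Lrig1* and *Cxcl14*, each with 1. Of 18 epidermal fate factors 3 had a shared site (*Barx2*, *Tfap2c* and *Prdm1*) and 13 a skin-only site, with 74 skin-only, 4 shared and 4 culture-only sites in all. Over all protein-coding genes these totals were 10413, 1702 and 3078.

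Of 24 TGF-beta and BMP pathway genes 4 had a shared site, among them *Tgfbr3*, *Tgfb2* and *Bmp7*, and 17 a skin-only site. *Fos* alone of 12 AP-1 factors had a shared site, while 9 had a skin-only site. None of 17 keratin genes had a shared site, and 9 had a skin-only site. Of 12 hedgehog pathway genes none had a shared, 6 a skin-only and 1 a culture-only site. The last was *Gli3*, with 4 culture-only sites (a gene singled out after its values were seen). Since 6.27% of all protein-coding genes had a shared site, low counts of shared sites in lists of 12 or 17 genes do not set these lists apart.

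Of 12 genes listed for mesenchymal transition 1 (*Snai2*) had a shared, 4 a skin-only and 3 a culture-only site. Of the list's 16 skin-only sites *Cdh1*, the epithelial cadherin gene, held 8, *Tgfbi* 4, *Sparc* 3 and *Snai2* 1. The culture-only ones were *Cdh2* with 5 sites, *Zeb2* with 3 and *Vim* with 1. All of these genes but *Snai2* and *Vim* were singled out after their values were seen. In this list 0 genes had both a skin-only and a culture-only site. Over all protein-coding genes 962 of the 2259 with a culture-only site also had a skin-only one, so a count from 3 genes sets nothing apart. Of 16 SOX9 targets of cartilage 3 had a shared, 6 a skin-only and 4 a culture-only site. *Sox6*, a SOX factor that acts with SOX9 in chondrocytes, had 4 shared, 1 skin-only and 6 culture-only sites, and *Sox5* had 1, 7 and 1.

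Single loci, each with 50 kb to either side, show these classes together. At *Runx1* (chr16:92601466-92826149) the W1 list had 4 shared and 8 skin-only peaks and the cultured list the 4 shared and 1 culture-only peak. The shared sites were all intronic. The one of highest total signal in culture, with a maximum of 4761 RPKM, is the window printed above and had 2766 RPKM at W1. The one with the highest maximum in both lists had 10199 RPKM at W1, at chr16:92623673-92624395, and 5910 RPKM in culture. The strongest skin-only peak of the locus, chr16:92549997-92552545 at 11698 RPKM, lay on MLL3/4 at W1 but not at D0, and held a SOX word. All 4 shared sites were bound at W12.

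*Ctnnb1* (chr9:120929216-120960507), which codes for beta-catenin, had 2 skin-only peaks and 1 shared site. The shared site lay in a promoter 3.39 kb downstream of the gene start. It reached 5589 RPKM at W1 and 1806 RPKM in culture, and lay on MLL3/4 in skin at W1 but not at D0 or in culture. Its window printed above held a SOX word within 50 bp of the W1 maximum.

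The loci of epidermal identity had skin-only sites too, as *Runx1* and *Ctnnb1* did. Of the listed epidermal fate factors 72.2% had a skin-only site, and of the hair follicle factors 68.2%. At *Trp63* (chr16:25683763-25892102), the master regulator of the epidermis, 10 W1 peaks were skin-only and 0 shared. Of these 10, 6 lay on D0 MLL3/4, 10 on W1 MLL3/4 and 2 on MLL3/4 of uninduced cultured cells, and 0 held a SOX word. Another 2 W1 peaks there, of 4610 and 4725 RPKM, were set aside, and both lay on MLL3/4 in the D0, W1 and both cultured lists and were bound at W12. Culture had 2 culture-only peaks there, neither on MLL3/4 in any of the 4 lists of D0, W1 or culture. *Gata3* (chr2:9857078-9890034) had 2 skin-only peaks, both intronic, 0 shared and 0 culture-only. Its strongest W1 peak, chr2:9835009-9835789 at 10488 RPKM, overlapped a cultured peak of 3447 RPKM, and both were set aside because uninduced peaks lay there. *Krt5* (chr15:101707070-101712898), a keratin of the basal layer, had 4 skin-only and 3 culture-only peaks and 0 shared. Both of its set-aside W1 peaks (2593 RPKM each) overlapped a cultured peak, so both systems had SOX9 peaks there at sites left out of the classes.

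*Vim* (chr2:13573927-13582826), the intermediate filament gene of mesenchyme, had no W1 peak and 2 culture-only peaks, of 4268 RPKM in an intron 46.4 kb upstream and 1970 RPKM in an exon within the gene. At *Sox9* itself (chr11:112782224-112787760) neither system had a kept peak. The cultured list had 3 peaks in the gene, up to 8372 RPKM, but all 3 were set aside because the uninduced lists held peaks there.

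The sites of highest total signal are given as a description of sites chosen by rank, and did not repeat every contrast of the classes. All 5 highest skin-only sites, near *Klf6*, *Tmem45a*, *Peli1*, *Sgk1* and *Rab6b*, lay on D0 MLL3/4 and were bound at W2, W6 and W12, with maxima of 6108 to 9335 RPKM. All 5 highest culture-only sites, near *Grik2*, *Usp32*, *Mc5r*, *Gm21961* and *Utp20*, had no MLL3/4 peak in either uninduced system and had one in culture with DOX, with maxima of 9357 to 20520 RPKM, and 4 of the 5 were bound in skin at W6. The 5 highest shared sites by the cultured ranking, near *Lmnb1*, *Clca4a*, *Tfpi*, *Tle1* and *Clec2d*, lacked prior MLL3/4 in both systems too, and all were bound in skin at W6 and W12. By the W1 ranking they lay near *Adgrl2*, *Tle1*, *Atp2b1*, *Reep3* and *Pkd1l1*, and 3 of the 5 had D0 MLL3/4.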

How the data were processed

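Reads were trimmed (Skewer), mapped on mm10 (Bowtie2 2.2.9), deduplicated (Picard) and limited to fragments up to 120 bp (SAMtools 1.3.1) by the authors, who then joined the 2 replicates of a group and made coverage tracks (deepTools 3.1.2). They called peaks with SEACR (stringent, 0.01) and kept SOX9 and MYC-tag peaks above a maximum of 1800. Maxima of these deposited lists are in RPKM, and the deposited total signal is coverage summed over a peak. In the deposited MLL3/4 lists used, 100% of maxima and totals are whole numbers, with lowest maxima of 3 to 5, so they were read as coverage not in RPKM, although the methods describe RPKM tracks. Their signals were used only to rank peaks within a list. Deposited MLL3/4 lists called on replicate 1 alone or in truncated-SOX9 cells were not used.

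Software was pysam 0.24.0, scipy 1.17.1, numpy 2.4.6, pandas 2.3.3 and matplotlib 3.10.9 under Python 3.11.15, and peaks were taken on the assembled chromosomes without the mitochondrial one. Genes came from GENCODE vM21 and sequence from RefSeq GRCm38.p6 (mm10), and 0 peaks ended beyond a chromosome. Coordinates count from 1. Fragment numbers come from the RPKM of 1 fragment, the step of which the lower maxima are whole multiples within 0.02 fragments. The depth of MLL3/4 lists is unknown. PCR copies and neighbouring peaks are not independent, so intervals are too narrow. No test between groups was possible with 1 pooled list per group, and the study calls the samples of a group biological replicates. The overlap, word and context counting was tested on simulated data.

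Named were 7 loci, the 5 strongest sites of each class, the 3 genes with most shared sites of each of 11 lists (199 genes, all found) and the 5 genes with most sites of each class. Sequences were printed for sites off chromosome 18. Members and lists were chosen with earlier results of these data known. Alternatives were 50% overlap, equal list sizes, 3600 RPKM, merging within 500 bp, no peak set aside, the uninduced MYC-tag list of replicate 1, autosomes, and other MLL3/4, promoter, window and gene definitions.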

Additional observations from a re-analysis of the deposited data

How the results depend on the processing

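Of 98 values recomputed under an alternative, 65 moved within the 95% interval of the value reported (gene counts: within 1.5 times), 32 moved beyond it and 1 whose interval excluded 0 reversed. The SOX word difference in culture, whose interval spans 0, also took the other sign with no peak set aside and with the wider windows (-0.94 points). Causes were not tested. With lists of equal size the shared shares were 21.5% (W1) and 21.3% (culture), the promoter differences -0.64 and 0.11 points, the AP1 difference 7.99 points, and genes with shared and skin-only sites 874 and 2197. Above 3600 RPKM the W1 shared share was 12.9%, the prior MLL3/4 differences -34.1 and 23.2 points, the SOX word difference in culture 6.77 points, the AP1 difference 9.22 points, the gene counts 364, 1729 and 581, and the promoter difference in culture reversed, to -0.96 points. With no peak set aside the shared shares were 15.4% and 37.6%, the prior MLL3/4 differences -23.3 and 35.4, the promoter differences -0.035 and 11.6, the SOX word differences 15.7 and -2.11 and the AP1 difference 11.5 points. With MLL3/4 lists as short as the cultured DOX list, a setting chosen after seeing the data, the prior MLL3/4 differences were -19.0 and 18.5 points. Merging gave a W1 shared share of 14.8%. Windows of 100 bp to either side gave a SOX word difference in skin of 21.3 and an AP1 difference of 12.5 points. Counting genes with 50 kb to each side gave 3062, 9924 and 4391 genes. Both prior MLL3/4 differences and the SOX word difference in skin kept their sign under every alternative run. No paired analysis was possible because each group is 1 list called on pooled replicates.

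The uninduced MYC-tag list of replicate 1 alone moved no value beyond its interval. The cultured list is the shallower (11 fragments at its weakest peak against 32 at W1).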
